A study of Homo sapiens with 16 samples.

Results

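The respiratory chain genes examined here were 54 genes of oxidative phosphorylation, 13 of them mRNAs of the mitochondrial genome, recognised by the MT- prefix of their symbol, and 41 of them nuclear genes for subunits of complexes I to V. They were taken by symbol from a named list of 54 symbols and matched by identifier to a count table of 63677 genes, of which 17464 passed a filter on low counts. All 54 members passed it. The 54 symbols stood for 56 identifiers, because SDHD and ATP5L each had a second identifier with 0 reads, which was not used. The libraries came from SW620 and SW480, established human colon cancer cell lines that are known as a pair, SW620 from a lymph node metastasis and SW480 from the primary tumour of the same patient. In SW620 the groups were cells transduced with ERB and given 10 nM estradiol (E2) for 24 h, cells transduced with ERB and given the solvent DMSO for 24 h, untreated cells transduced with ERB, cells transduced with an empty vector, and parental cells without transduction. In SW480 they were untreated cells transduced with ERB, cells transduced with an empty vector, and parental cells. ERB is estrogen receptor beta, a hormone-dependent transcription factor encoded by ESR2. Each of the 8 groups had 2 libraries, I and II, of mRNA from cells grown in DMEM with serum, and every comparison asks whether the level of a respiratory chain mRNA differed between such groups. The promoter of the transgene and the number of clones behind a transduced line are not given in the labels, and the labels do not state that libraries I and II are separate cultures. The spread behind each p-value is that between these libraries and may be technical.

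The respiratory chain carries electrons from NADH and succinate to oxygen through complexes I to IV in the inner mitochondrial membrane, and complex V, the ATP synthase, uses the resulting proton gradient to make ATP. Complexes I, III, IV and V are mosaics: they hold subunits translated inside the organelle from mitochondrial mRNAs, while most subunits are nuclear products that are imported. Complex II is entirely nuclear. The mitochondrial mRNAs are cut from long transcripts of the heavy strand, with the exception of MT-ND6, which comes from the light strand and largely lacks a poly(A) tail. Colon epithelium and colon cancer cells use both oxidative phosphorylation and glycolysis, and nuclear factors such as NRF1 and GABP (an ETS factor) are known to drive many nuclear subunit genes.

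The base composition of the mitochondrial mRNAs sets MT-ND6 apart, as the first 60 bases of 3 of them show (GENCODE, GRCh38, with G in capitals). MT-ND6 is read from the minus strand at chrM:14614-14673 and MT-CYB and MT-ND1 from the plus strand at chrM:14747-14806 and chrM:3307-3366.

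MT-ND6: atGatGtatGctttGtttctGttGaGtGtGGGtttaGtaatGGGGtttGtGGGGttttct
MT-CYB: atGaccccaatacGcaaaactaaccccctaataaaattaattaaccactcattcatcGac
MT-ND1: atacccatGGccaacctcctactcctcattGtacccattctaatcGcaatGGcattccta

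MT-ND6 has 21 G and 3 C among these bases, against 3 G and 19 C in MT-CYB and 6 G and 22 C in MT-ND1. Over the whole mRNA, G makes up 35.6% and C 7.05% of MT-ND6, whereas in the other 12 mRNAs C makes up 29.5 to 36.0% and G 6.28 to 16.2%. Its total GC content of 42.7% lies within the 39.6 to 47.7% of the other 12. MT-ATP8 and MT-ATP6, subunits of the ATP synthase, share bases on 1 transcript, so their reads cannot be separated fully.

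The shared stretch is at chrM:8527-8572 on the plus strand (GRCh38) and opens with the start codon of MT-ATP6, in capitals.

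MT-ATP8 and MT-ATP6: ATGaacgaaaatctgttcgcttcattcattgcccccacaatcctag

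These 46 bases are 22.2% of MT-ATP8. MT-ND4L and MT-ND4, both of complex I, share 7 bases. Of the nuclear members, 31 of 41 had a promoter sequence in RefSeq (GRCh38.p14). In a window of 250 bases before and 50 after the start, both strands searched, the NRF1 consensus was found in 2 of 31 (6.45%), those of NDUFA8 and SDHD, against 1.48% of 35116 promoters. An ETS motif, CCGGAAG, was found in 13 of 31 (41.9%), against 10.3% of all. The letters of these motifs do not overlap in the windows shown. A pair of promoters is shown because both hold the ETS motif while the mRNAs moved in opposite directions between libraries, SDHD against most of the nuclear members and NDUFB7 with them. The 250 bases before the start have the motifs in capitals.

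SDHD (GRCh38.p14, chr11:112086623-112086872, plus strand): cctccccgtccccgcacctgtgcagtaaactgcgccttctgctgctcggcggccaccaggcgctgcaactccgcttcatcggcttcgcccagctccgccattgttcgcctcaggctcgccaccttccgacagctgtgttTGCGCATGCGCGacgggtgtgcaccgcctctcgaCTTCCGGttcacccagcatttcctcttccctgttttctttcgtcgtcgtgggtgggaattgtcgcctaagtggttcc
NDUFB7 (GRCh38.p14, chr19:14572067-14572316, minus strand): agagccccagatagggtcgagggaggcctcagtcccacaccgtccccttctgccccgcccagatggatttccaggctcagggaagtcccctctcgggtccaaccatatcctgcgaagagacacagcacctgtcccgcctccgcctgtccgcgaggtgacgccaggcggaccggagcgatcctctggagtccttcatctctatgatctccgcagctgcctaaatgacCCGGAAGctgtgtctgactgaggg

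In SDHD, a membrane anchor of complex II, the capitals mark the NRF1 consensus and, after it, the ETS motif on the other strand. In NDUFB7, an accessory subunit of complex I, they mark the ETS motif. A match of letters is a description of the window and not a site of binding.

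The libraries held 12743940 to 18948283 counted reads. ESR2 had 100 to 187 reads in the 8 libraries labelled with ERB and 0 to 4 in the 8 without. Markers of colon epithelium were present, with summed levels of 2895 to 30387 CPM (counts scaled to a common library total), CDX1 alone having no reads in any group, while leukocyte markers summed to 0.610 to 4.62 CPM and fibroblast markers to 3.64 to 21.9 CPM. The libraries labelled SW480 with empty vector or ERB differed from parental SW480 in genes that set the parental lines apart. Of the genes, 298 were at least 8-fold higher in parental SW480 than in parental SW620, and none was a member. The level of each in a library was taken as a percentage of its mean in parental SW480. The median over the 298 genes was 17.2 and 21.3% under the ERB label and 2.22 and 2.17% under the empty vector label. It was 1.42 to 2.04% in the 8 SW620 libraries other than the parental ones. Another 35 genes were at least 8-fold higher in parental SW620. Their median, as a percentage of parental SW620, was 54.4 and 48.3% under the ERB label, 28.8 and 66.2% under the empty vector label and 4.58 and 5.59% in parental SW480. Both sets were chosen from the parental libraries, so they cannot tell which of the SW480 libraries are the exception. Library II labelled SW480 with empty vector also stood apart in its amino acid and ER stress genes (15 listed), whose summed level was 7929 CPM there and 1699 CPM in library I. The comparisons of these libraries with parental SW480 and with each other cannot be made without them, so they are given under the labels as deposited, with 1 library left out at a time, and a fit of the SW620 libraries alone is given where it changes the calls.

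Per transcript length, the mitochondrial mRNAs were more abundant than the nuclear members in every library. The median FPKM (fragments per length of transcript and per library total) of the 13 mitochondrial mRNAs was 12.3 to 28.2 times that of the 41 nuclear members, library by library. Averaged over 16 libraries, MT-ATP8 was highest with 22035 FPKM, although its short length and the overlap make that value uncertain, followed by MT-CO3 with 13307 and MT-CO2 with 12752, both core subunits of complex IV. MT-ND6 was the lowest mitochondrial mRNA with 201 FPKM, and MT-ND5, the largest mitochondrial complex I subunit, the next with 562. Among nuclear members ATP5B, the catalytic beta subunit of the ATP synthase, averaged 4417 FPKM and was the highest. ATP5L followed with 1721 and UQCRQ, a small complex III subunit, with 1447. SDHD was lowest with 49.1 FPKM and NDUFS1, the largest complex I subunit, next with 53.5. By complex, the median FPKM of the mitochondrial members over the libraries was 14080 for complex V (2 genes) and 10860 for complex IV (3). It was 2511 for complex I (7) and 2490.2 for complex III (1). The place of complex V above complex IV rests on the uncertain value of MT-ATP8, since MT-ATP6 averaged 7897 FPKM. The median for the nuclear members was 515 for complex IV (7 genes), 484 for complex V (6), 222 for complex III (7), 208 for complex I (17) and 204 for complex II (4). NDUFA4, named for complex I and now placed in complex IV, is counted with complex I throughout. The last 3 lie within the range of one another over the 16 libraries.

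As a share of all counted reads, the 13 mitochondrial mRNAs took 2.93 and 3.33% (libraries I and II) in estradiol-treated cells, 3.47 and 3.996% in DMSO-treated cells, 4.53 and 3.57% in untreated cells with ERB, 4.29 and 4.23% in empty vector cells and 3.33 and 4.08% in parental SW620. They took 5.09 and 4.17% in the SW480 libraries labelled with ERB, 4.84 and 7.18% in those labelled with empty vector and 3.18 and 3.98% in parental SW480. Library II with empty vector was the highest of the 16, and estradiol-treated library I the lowest. The 41 nuclear members took 1.04 and 1.05% of reads in estradiol-treated cells, 0.790 and 0.834% in DMSO-treated cells, 1.12 and 1.17% in untreated cells with ERB, 1.20 and 1.07% in empty vector cells and 1.10 and 1.30% in parental SW620. For SW480 the shares were 1.39 and 1.23% under the ERB label, 1.19 and 1.25% under the empty vector label and 1.14 and 0.726% in parental cells. Both DMSO-treated libraries were below every other SW620 library. Parental SW480 library II was the lowest of all. The 95% Wilson intervals were narrow, 2.92 to 2.94% for the mitochondrial share in estradiol library I and 0.722 to 0.729% for the nuclear share in parental SW480 library II, and cover counting error only. In bulk RNA, fewer cells with a high level and less RNA per cell cannot be told apart.

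**Figure D1:**
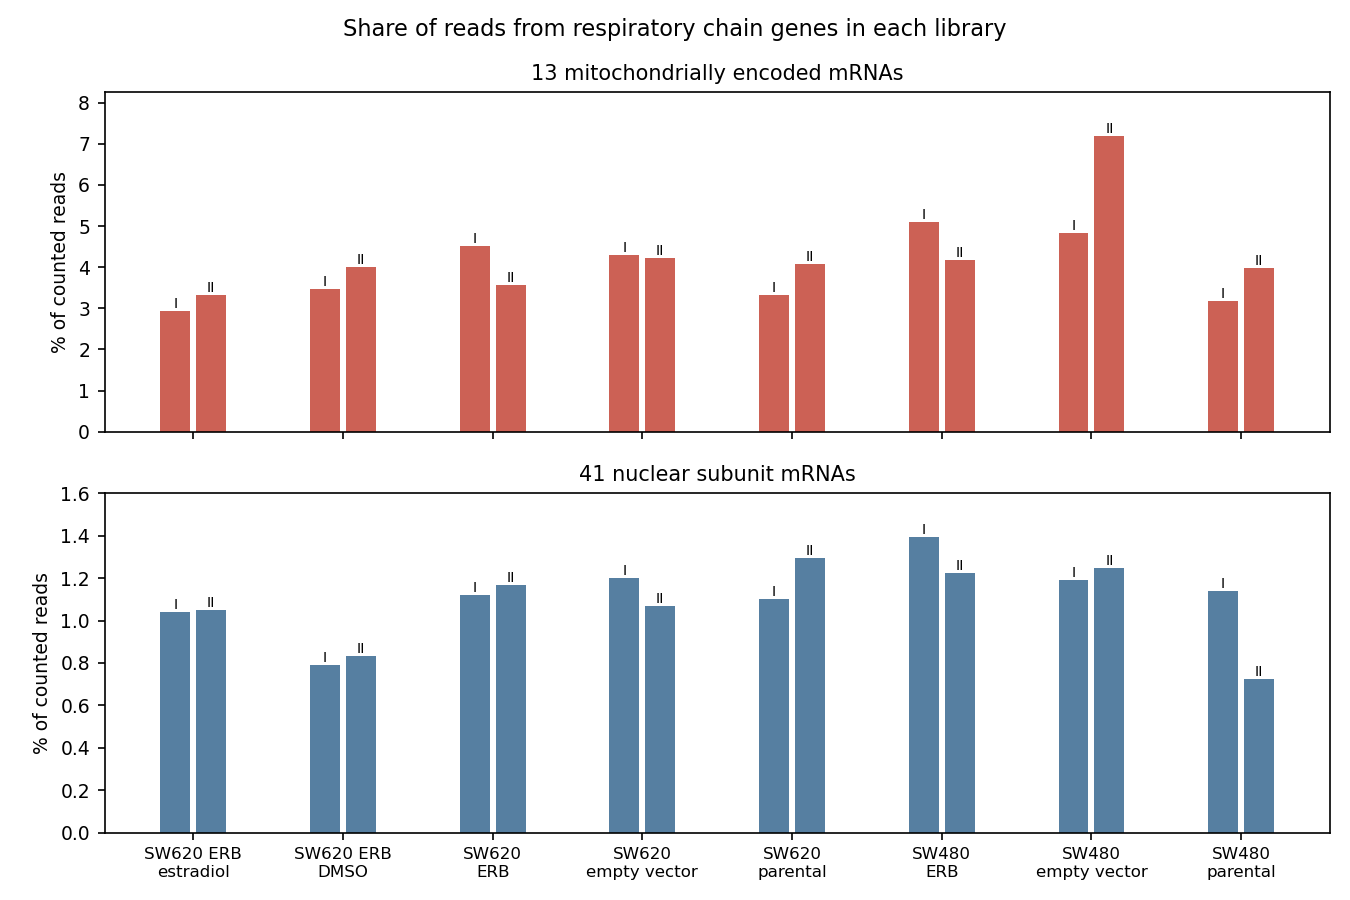
Share of counted reads (%) from the 13 mitochondrial mRNAs (upper panel) and the 41 nuclear members (lower panel); each bar is 1 library, I or II, of the group named below. The mitochondrial share was highest, 7.18%, in library II labelled SW480 with empty vector, and the nuclear share was lowest in parental SW480 library II (0.726%) and the 2 DMSO-treated libraries (0.790 and 0.834%).

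Levels of a single gene are compared between libraries below as CPM scaled by TMM factors, which adjust for differences in composition. MT-CO1, the catalytic core of complex IV, had 4520.1 and 5110.2 CPM in estradiol-treated, 4524 and 5202 in DMSO-treated and 8188 and 6111 in untreated SW620 cells with ERB, 8051 and 7164 in empty vector cells and 5100.0 and 7656 in parental SW620. MT-CO1 had 12340.5 and 7310.2 CPM in the SW480 libraries labelled with ERB, 6486 and 16856 in those labelled with empty vector and 4632 and 5175 in parental SW480. Both estradiol libraries, DMSO library I, parental SW620 library I and both parental SW480 libraries held the lowest 6 values, and library II labelled SW480 with empty vector the highest. MT-ND1, a membrane subunit of complex I, had 1458 and 1825 CPM in estradiol-treated, 1371 and 1669 in DMSO-treated and 2122 and 1801 in untreated SW620 cells with ERB, 2130.2 and 1761 in empty vector cells and 1338 and 2099 in parental SW620. MT-ND1 had 3790.0 and 2549 CPM in the SW480 libraries labelled with ERB, 2429 and 6425 in those labelled with empty vector and 1192 and 917 in parental SW480. Parental SW480 held the lowest 2 values. MT-CYB, cytochrome b of complex III, had 2126 and 2507 CPM in estradiol-treated, 2183 and 2422 in DMSO-treated and 2866 and 2531 in untreated SW620 cells with ERB, 3113 and 2688 in empty vector cells and 2143 and 2993 in parental SW620. MT-CYB had 5372 and 3872 CPM in the SW480 libraries labelled with ERB, 3807 and 8820.5 in those labelled with empty vector and 2670.4 and 3080.1 in parental SW480. Here both parental SW480 libraries lay within the range of the SW620 libraries.

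MT-ATP6, part of the proton channel of the ATP synthase, had 1469 and 1789 CPM in estradiol-treated, 1543 and 1730.4 in DMSO-treated and 3063 and 2343 in untreated SW620 cells with ERB, 3069 and 2619 in empty vector cells and 1922 and 3258 in parental SW620. MT-ATP6 had 6927 and 3828 CPM in the SW480 libraries labelled with ERB, 3966 and 8936 in those labelled with empty vector and 2641 and 2669 in parental SW480. The 4 treated libraries held the lowest 4 values of the 16. MT-ATP8, its neighbour on the same transcript, had 304 and 402 CPM in estradiol-treated, 247 and 355 in DMSO-treated and 668 and 509 in untreated SW620 cells with ERB, 616 and 503 in empty vector cells and 449 and 543 in parental SW620. MT-ATP8 had 1419.8 and 797 CPM in the SW480 libraries labelled with ERB, 513 and 2493 in those labelled with empty vector and 491 and 475 in parental SW480. The same 4 treated libraries were again the lowest. MT-ND6, the complex I subunit from the light strand, had 24.0 and 24.7 CPM in estradiol-treated, 33.6 and 43.0 in DMSO-treated and 135 and 60.6 in untreated SW620 cells with ERB, 82.6 and 70.1 in empty vector cells and 74.1 and 93.0 in parental SW620. MT-ND6 had 110.2 and 71.8 CPM in the SW480 libraries labelled with ERB, 75.9 and 107 in those labelled with empty vector and 204 and 200.2 in parental SW480. Parental SW480 held the 2 highest values and the estradiol-treated cells the 2 lowest.

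Of the nuclear members, NDUFS1, the iron-sulfur subunit of complex I that receives electrons early in the chain, had 133 and 105 CPM in estradiol-treated, 144 and 155 in DMSO-treated and 128 and 153 in untreated SW620 cells with ERB, 127 and 166 in empty vector cells and 169 and 129.6 in parental SW620. NDUFS1 had 65.6 and 129 CPM in the SW480 libraries labelled with ERB, 164 and 55.6 in those labelled with empty vector and 174 and 201 in parental SW480. Its lowest 2 values were in ERB library I and empty vector library II of SW480, the libraries in which 15 and 10 of the 41 nuclear members were highest. SDHA, the flavoprotein of complex II, had 293 and 315 CPM in estradiol-treated, 193 and 153 in DMSO-treated and 361 and 367 in untreated SW620 cells with ERB, 395 and 324 in empty vector cells and 323 and 444 in parental SW620. SDHA had 615 and 426 CPM in the SW480 libraries labelled with ERB, 354 and 552 in those labelled with empty vector and 287 and 161 in parental SW480. The DMSO-treated libraries and parental SW480 library II were the lowest 3. UQCRC1, a core subunit of complex III, had 656 and 674 CPM in estradiol-treated, 302 and 289 in DMSO-treated and 689.7 and 697 in untreated SW620 cells with ERB, 792 and 525 in empty vector cells and 498 and 824 in parental SW620. UQCRC1 had 2270.3 and 1088 CPM in the SW480 libraries labelled with ERB, 718 and 2489 in those labelled with empty vector and 821 and 359 in parental SW480. Its highest value was 8.61 times its lowest, which was that of DMSO-treated library II.

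COX4I1, a regulatory subunit of complex IV, had 401 and 411 CPM in estradiol-treated, 204 and 231 in DMSO-treated and 411 and 434 in untreated SW620 cells with ERB, 487 and 329 in empty vector cells and 369.9 and 591 in parental SW620. COX4I1 had 1201 and 642 CPM in the SW480 libraries labelled with ERB, 514 and 1196 in those labelled with empty vector and 470.5 and 217 in parental SW480. Both DMSO-treated libraries were below all other SW620 libraries. ATP5B of complex V had 3089 and 3123 CPM in estradiol-treated, 1720.5 and 1914 in DMSO-treated and 3099.8 and 3256 in untreated SW620 cells with ERB, 3393 and 2568 in empty vector cells and 2656 and 4011 in parental SW620. ATP5B had 5894 and 3928 CPM in the SW480 libraries labelled with ERB, 3771 and 5027 in those labelled with empty vector and 2858 and 1342 in parental SW480. Again the 2 DMSO-treated libraries were the lowest of SW620, and parental SW480 library II the lowest of all. Over the 16 libraries, the highest value of a gene was 2.95 times (MT-ND5) to 10.1 times (MT-ATP8) its lowest among the mitochondrial mRNAs, with a median of 5.58 times. Among the nuclear members it was 1.64 times (NDUFA10) to 45.7 times (ATP5D), with a median of 5.08 times. For 8 of 41 nuclear members and 1 of 13 mitochondrial mRNAs it was under 3 times.

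**Figure D2:**
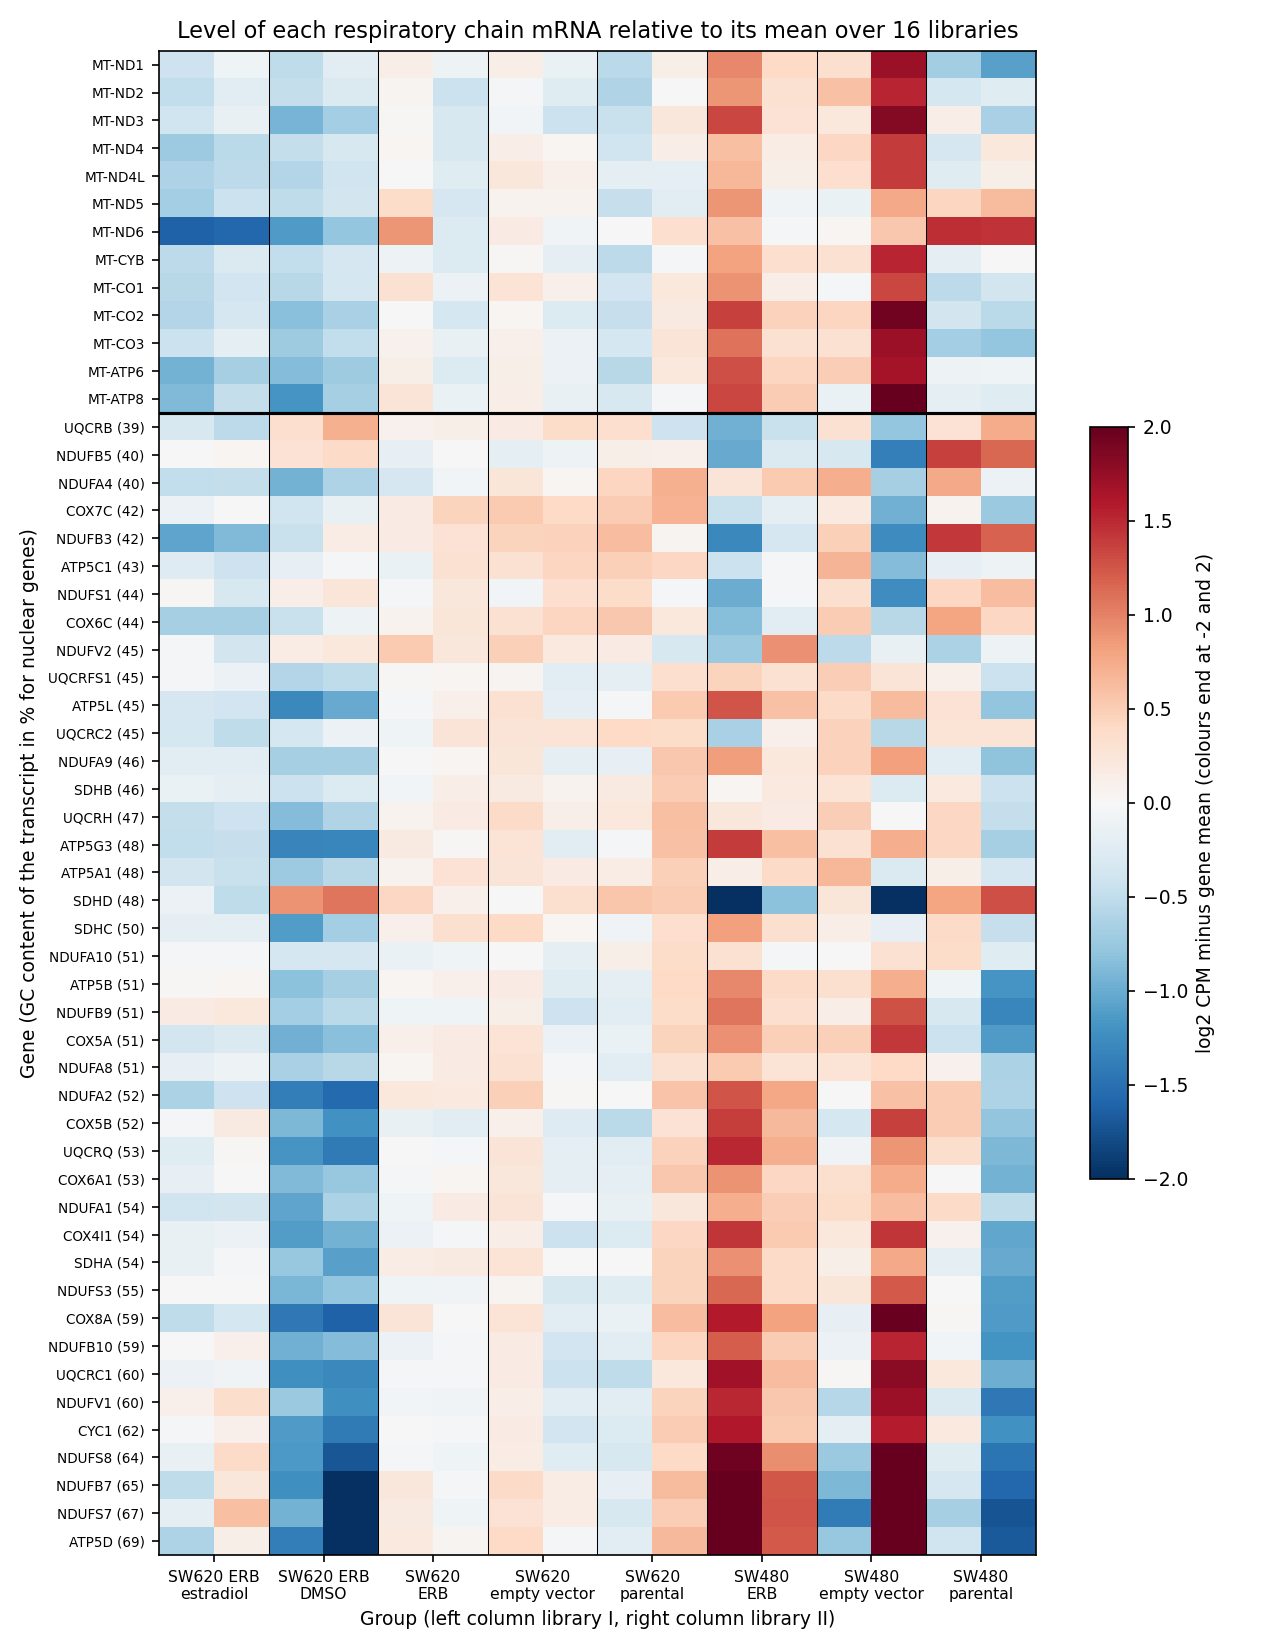
Level of each of the 54 mRNAs (rows) in the 16 libraries (columns, 2 per group), as log2 CPM minus the mean of the gene over all libraries; nuclear genes are ordered by the GC content of their transcripts, given in % beside the symbol. The DMSO-treated libraries are low for most nuclear genes. ERB library I and empty vector library II of SW480 are high for GC-rich nuclear genes and low for most GC-poor ones. The mitochondrial mRNAs other than MT-ND6 vary together, MT-ND5 less closely than the rest.

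Estradiol was compared with DMSO in SW620 cells with ERB, the comparison that asks for the effect of the receptor's ligand. Most nuclear members were higher with estradiol in both libraries, while the median of the mitochondrial mRNAs was near that of all genes in the fits without offsets for GC content and length, but not with them. UQCRQ, a small subunit of complex III, had 268 and 320.4 CPM with estradiol, against 139.9 and 119 CPM with DMSO, and the 2 groups did not overlap (log2 fold change 1.19 ± 0.45 (SE); edgeR, Benjamini-Hochberg adjusted p = 0.238). Of the mitochondrial mRNAs, MT-ND6 had the lowest p, with 24.0 and 24.7 CPM with estradiol, against 33.6 and 43.0 CPM with DMSO (log2 fold change -0.65 ± 0.37 (SE); edgeR, Benjamini-Hochberg adjusted p = 0.255), also without overlap. In the fit of all 16 libraries edgeR called none of the 54 members at an adjusted p under 0.05, and 0% of all genes tested. DESeq2 and limma-voom called none of the members either. The median log2 fold change was 0.01 for the mitochondrial mRNAs and 0.70 for the nuclear members, beside 0.06 for all genes tested. Both estradiol libraries were above both DMSO libraries for 32 of 41 nuclear members and below for 8, and for 3 and 2 of 13 mitochondrial mRNAs. Of all genes, 42.4% lay above and 38.3% below in this way, so that the DMSO and estradiol groups separated for most genes.

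When the SW620 libraries were fitted alone, so that the more variable SW480 libraries did not enter the spread, edgeR called 24 nuclear members higher and 3 lower, of 41, and 0 of 13 mitochondrial mRNAs. In that fit 53% of all genes were called, 29.4% higher and 23.6% lower. NDUFS8, an iron-sulfur subunit of complex I, rose (log2 fold change 1.55 ± 0.28 (SE); edgeR, Benjamini-Hochberg adjusted p = 0.00686 in this fit), with 139.9 and 201 CPM with estradiol, against 69.7 and 47.2 CPM with DMSO. The values did not overlap. CYC1, cytochrome c1 of complex III, had 268 and 291 CPM with estradiol, against 124 and 102 CPM with DMSO, and rose as well (log2 fold change 1.32 ± 0.25 (SE); edgeR, Benjamini-Hochberg adjusted p = 0.00686). The 3 members that fell were SDHD of complex II, UQCRB of complex III and NDUFB3 of complex I. SDHD had 23.0 and 17.5 CPM with estradiol, against 46.2 and 52.1 CPM with DMSO (log2 fold change -1.27 ± 0.21 (SE); edgeR, Benjamini-Hochberg adjusted p = 0.00686). By complex, 9 of 17 nuclear complex I members rose and 1 fell, 2 of 4 of complex II rose and 1 fell, 4 of 7 of complex III rose and 1 fell, and 5 of 7 of complex IV and 4 of 6 of complex V rose and none fell. Leaving out estradiol library II or DMSO library II removed all or nearly all of the calls in this fit. Leaving out library I of either group left fewer members called. NDUFS8, CYC1 and SDHD were chosen after their values were seen. NDUFS8 and CYC1 have transcripts of 63.5 and 61.8% GC. Protein-coding genes of 53.5 to 68.7% GC had a median log2 fold change of 0.86 in this comparison, in the fit of all libraries. With offsets for the GC content and length of the transcripts in the same 10 libraries, 20 nuclear members were called higher and 1 lower, SDHD, beside 10.8% and 7.75% of all genes. 12 of the 24 members that had risen without offsets rose with them. In this setting MT-ND3 and MT-ATP8 were called higher (1.37 and 0.83). The median log2 fold change with offsets was 0.46 for the mitochondrial mRNAs and 0.37 for the nuclear members, beside 0.01 for all genes, whereas in the same libraries without offsets it was 0.02, 0.71 and 0.09. The higher median of the nuclear members than of the mitochondrial mRNAs was thus not seen with offsets.

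DMSO was compared with no treatment in SW620 cells with ERB. The DMSO-treated and untreated libraries differ in the solvent and in any handling that went with it, which cannot be told apart. Most respiratory chain mRNAs of both genomes were lower in both DMSO libraries. NDUFA2, an accessory subunit of complex I, had 32.7 and 28.9 CPM with DMSO, against 99.2 and 97.8 CPM untreated. It fell (log2 fold change -1.68 ± 0.39 (SE); edgeR, Benjamini-Hochberg adjusted p = 0.0291), and was the only member called in the fit of all 16 libraries, in which 6.15% of all genes were called and 3.76% were lower. This call was lost when any 1 of the 4 libraries was left out. The lowest p of a mitochondrial mRNA was that of MT-ND6, with 33.6 and 43.0 CPM with DMSO, against 135 and 60.6 CPM untreated (log2 fold change -1.35 ± 0.37 (SE); edgeR, Benjamini-Hochberg adjusted p = 0.0516). The groups did not overlap, and untreated library I was well above library II. The median log2 fold change was -0.56 for the 13 mitochondrial mRNAs and -0.83 for the 41 nuclear members, beside 0.00 for all genes. Both DMSO libraries were below both untreated ones for 12 of 13 mitochondrial mRNAs and 36 of 41 nuclear members, against 39.8% of all genes, and above for 0 and 3, against 41.5%.

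In the SW620 libraries alone, edgeR called 29 nuclear members lower and 2 higher with DMSO, of 41, and 4 of 13 mitochondrial mRNAs lower, beside 48.8% of all genes called, 25.1% lower and 23.6% higher. COX8A, a small subunit of complex IV, had 111 and 98.4 CPM with DMSO, against 359.5 and 303 CPM untreated (log2 fold change -1.66 ± 0.24 (SE); edgeR, Benjamini-Hochberg adjusted p = 0.000802). ATP5G3, a gene for the c subunit of the ATP synthase rotor, had 161 and 163 CPM with DMSO, against 451 and 407 CPM untreated (log2 fold change -1.41 ± 0.21 (SE); edgeR, Benjamini-Hochberg adjusted p = 0.000947). In both genes, which were chosen after their values were seen, the groups did not overlap. The mitochondrial mRNAs that fell were MT-ND6 (-1.35), MT-ATP8 (-0.97), MT-ATP6 (-0.72) and MT-ND3 (-0.66). The members that rose were SDHD (0.71) and NDUFB5 (0.42), an accessory complex I subunit. The nuclear fall covered 11 of 17 members of complex I, 2 of 4 of complex II, 5 of 7 of complex III, 6 of 7 of complex IV and 5 of 6 of complex V. Leaving out any 1 library of the comparison left fewer members of both genomes called lower in this fit. MT-ND6, MT-ATP8, MT-ATP6 and MT-ND3 were then no longer all called. With GC and length offsets the counts were 33 nuclear members lower, 1 higher, SDHD, and 11 of 13 mitochondrial mRNAs lower, beside 24% of all genes lower and 23.1% higher. 25 of the 29 nuclear members and all 4 mitochondrial mRNAs that fell without offsets fell with them. The medians were then -0.82 for the mitochondrial mRNAs and -0.66 for the nuclear members, beside 0.03 for all genes, and without offsets -0.55, -0.83 and 0.02. The DMSO-treated libraries are shared by this comparison and that of estradiol with DMSO, so the values of one are not independent of those of the other. The untreated ERB libraries are likewise shared with the comparison of ERB with empty vector, and each empty vector group with its parental comparison.

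Other measurements moved with these groups. The 15 amino acid and ER stress genes summed to 7596 and 7809 CPM with estradiol and 5092 and 5047 CPM with DMSO. They summed to 1426 and 1530 CPM in untreated cells with ERB. In the fit of all libraries 8 of 15 were called higher with DMSO than untreated (median log2 fold change 2.92), beside 2.39% of all genes. DDIT3 (2.92), XBP1 (1.61) and ATF3 (3.53) had the smallest p. The colon epithelium markers (9 listed) summed to 7102 to 8416 CPM with estradiol, 3411 to 3960 CPM with DMSO and 10499 to 10678 CPM untreated, CDX1 being at 0. Their part in the respiratory chain values was not tested. The TMM factor was 1.09 and 1.05 with estradiol and 1.35 and 1.36 with DMSO, against 1.05 and 1.05 untreated. With library totals in place of TMM factors, the median log2 fold change of all genes was -0.25 for estradiol over DMSO and 0.37 for DMSO over untreated. On that scale the medians of the nuclear members were 0.36 and -0.46 and those of the mitochondrial mRNAs -0.34 and -0.19, so that the mitochondrial median for estradiol over DMSO lay below 0 as did that of all genes.

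**Figure D3:**
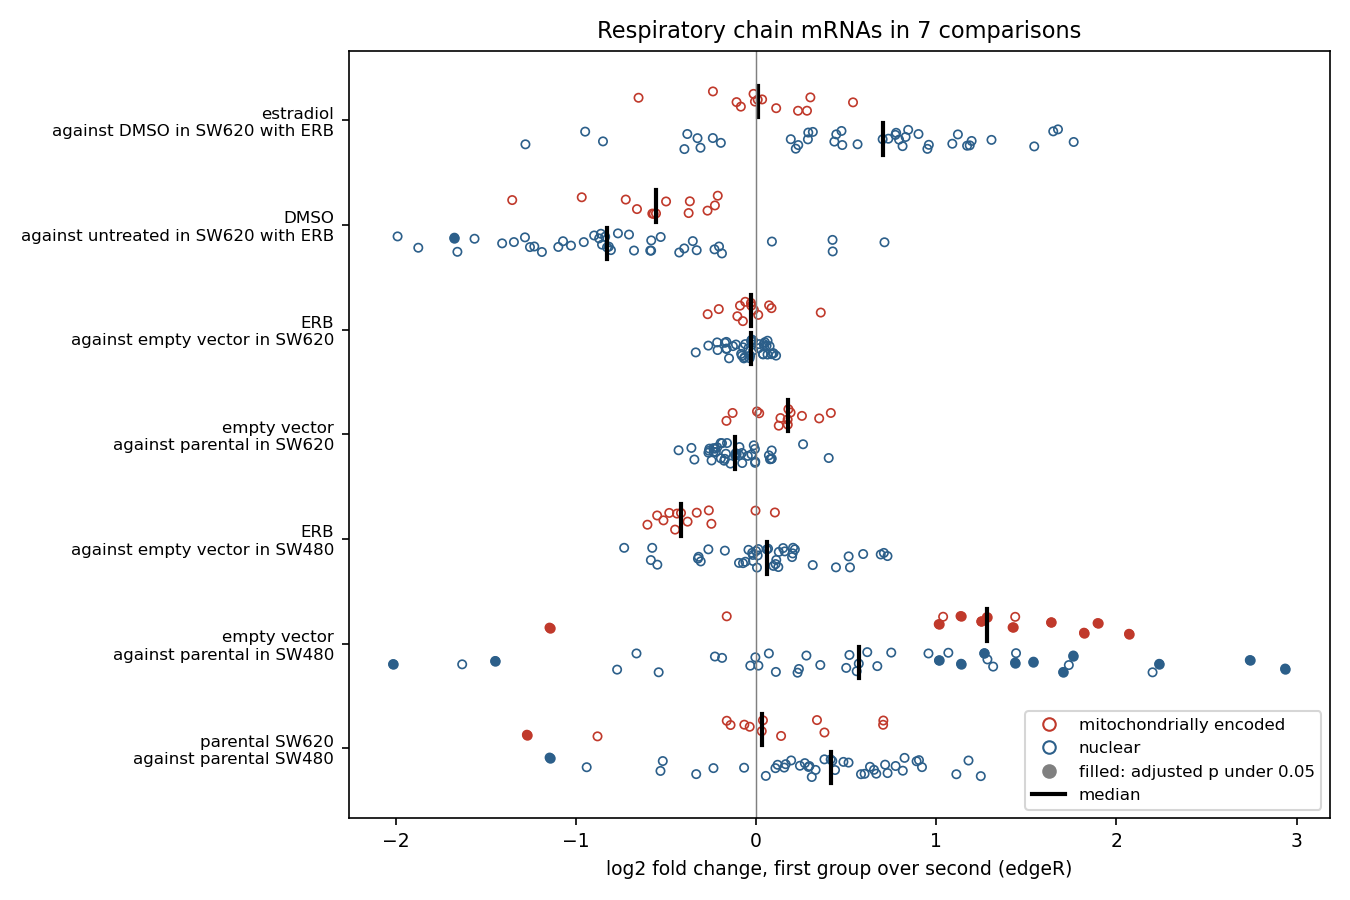
log2 fold change of each member in the 7 comparisons, the first-named group over the second (edgeR, all 16 libraries); red circles are the 13 mitochondrial mRNAs, blue circles the 41 nuclear members, filled where the adjusted p was under 0.05, and black bars the medians. Calls are most frequent for the libraries labelled SW480 with empty vector against parental SW480, and the nuclear median is 0.70 for estradiol over DMSO and -0.83 for DMSO over untreated.

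In SW620, ERB was compared with empty vector, the test of the transduced receptor without added ligand. None of the 54 members was called by edgeR, DESeq2 or limma-voom, and none had an unadjusted p under 0.05, beside 0.00573% of all genes called. The fold changes were small. They ran from -0.27 to 0.36 on the log2 scale for the mitochondrial mRNAs and from -0.34 to 0.11 for the nuclear members, with a median of -0.03 for each. The member with the lowest p was MT-ND6, with 135 and 60.6 CPM with ERB, against 82.6 and 70.1 CPM with empty vector (log2 fold change 0.36 ± 0.37 (SE); edgeR, Benjamini-Hochberg adjusted p = 1), and the groups overlapped. Both ERB libraries were below both empty vector libraries for 1 of 13 mitochondrial mRNAs and 5 of 41 nuclear members, against 12.5% of all genes, and above for none, against 9.93%. NDUFA4, the small subunit counted here with complex I, had 119.7 and 147 CPM with ERB, against 179.9 and 156 CPM with empty vector (log2 fold change -0.34 ± 0.40 (SE); edgeR, Benjamini-Hochberg adjusted p = 1). The fit of the SW620 libraries alone called none of the members in this comparison, with or without GC and length offsets, beside 0.00605% and 0.0181% of all genes.

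Empty vector was compared with parental cells in SW620 as a control of transduction. Again no member was called by edgeR, DESeq2 or limma-voom, none had an unadjusted p under 0.05, and 0% of all genes were called. The median log2 fold change was 0.17 for the mitochondrial mRNAs, 11 of 13 of which were above 0, and -0.12 for the nuclear members, 7 of 41 of which were above 0. MT-ND5 had 1196 and 1194 CPM with empty vector, against 821 and 972 CPM in parental cells (log2 fold change 0.41 ± 0.38 (SE); edgeR, Benjamini-Hochberg adjusted p = 1). NDUFA10, an accessory complex I subunit and the least variable member, had 104 and 92.2 CPM with empty vector, against 114 and 135 CPM in parental cells (log2 fold change -0.34 ± 0.26 (SE); edgeR, Benjamini-Hochberg adjusted p = 1). The groups did not overlap in either of these genes, but the differences were within the estimated spread. Both empty vector libraries were above both parental ones for 2 mitochondrial mRNAs and 1 nuclear member, against 13.2% of all genes, and below for 0 and 6, against 11.3%. In SW620 alone none of the members was called, beside 0.0847% of all genes (1.16% with offsets).

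The libraries labelled SW480 with ERB and with empty vector were compared in the same way. edgeR called none of the 54 members, none had an unadjusted p under 0.05, DESeq2 and limma-voom called none, and 1.1% of all genes were called. The mitochondrial mRNAs had a median log2 fold change of -0.42, with 12 of 13 below 0, and the nuclear members one of 0.06, beside -0.07 for all genes. MT-ND4, a core membrane subunit of complex I, had 8194 and 5968 CPM with ERB, against 7223 and 14295 CPM with empty vector (log2 fold change -0.60 ± 0.37 (SE); edgeR, Benjamini-Hochberg adjusted p = 0.623). NDUFA2 had 204 and 146 CPM with ERB, against 85.2 and 129 CPM with empty vector (log2 fold change 0.71 ± 0.38 (SE); edgeR, Benjamini-Hochberg adjusted p = 0.584). The 2 values with ERB were above both with empty vector, as for 2 of 41 nuclear members, against 13.9% of all genes. None was below, against 8.88% of all genes. For all 13 mitochondrial mRNAs the 2 groups overlapped. Without empty vector library II, 1 member was called, NDUFS7, an iron-sulfur subunit of complex I (log2 fold change 3.18). A test of the difference between the lines in the effect of ERB over empty vector called no member (0 by edgeR, DESeq2 or limma-voom, 0 at an unadjusted p under 0.05), beside 0.189% of all genes called.

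Libraries labelled SW480 with empty vector, compared with parental SW480, gave more called members than any other of the 7 comparisons in the fit of all 16 libraries, and none in the fit of the SW480 libraries alone. Of the mitochondrial mRNAs 9 of 13 rose and 1 fell, and of the nuclear members 10 of 41 rose and 2 fell, beside 30.9% of all genes called, 14.9% higher and 16% lower. MT-ND1 had the values given above, 2429 and 6425 CPM with empty vector, against 1192 and 917 CPM in parental cells, and rose (log2 fold change 2.07 ± 0.44 (SE); edgeR, Benjamini-Hochberg adjusted p = 0.00540). MT-CO3 had 9983 and 26328 CPM with empty vector, against 5036 and 4722 CPM in parental cells (log2 fold change 1.90 ± 0.44 (SE); edgeR, Benjamini-Hochberg adjusted p = 0.00924). MT-CO2 had 8759 and 24869 CPM with empty vector, against 5050.3 and 4472 CPM in parental cells (log2 fold change 1.82 ± 0.47 (SE); edgeR, Benjamini-Hochberg adjusted p = 0.0149). In all 3 genes both empty vector libraries were above both parental ones, with library II above library I. MT-ND2 (1.42), MT-ATP8 (1.64), MT-ATP6 (1.28), MT-CO1 (1.25), MT-CYB (1.13) and MT-ND4L (1.01) also rose. MT-ND6 fell, with 75.9 and 107 CPM with empty vector, against 204 and 200 CPM in parental cells (log2 fold change -1.15 ± 0.37 (SE); edgeR, Benjamini-Hochberg adjusted p = 0.0357). Both empty vector libraries were above both parental ones for 11 of 13 mitochondrial mRNAs and 11 of 41 nuclear members, against 22.4% of all genes. They were below for 1 (MT-ND6) and 4, against 27.1%.

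Of the nuclear members, NDUFB5 fell, with 38.1 and 18.5 CPM under the empty vector label, against 123 and 106 CPM in parental SW480 (log2 fold change -2.02 ± 0.35 (SE); edgeR, Benjamini-Hochberg adjusted p = 0.00172). NDUFB3, another accessory subunit of complex I, had 39.1 and 11.7 CPM with empty vector, against 74.97 and 64.1 CPM in parental cells (log2 fold change -1.45 ± 0.50 (SE); edgeR, Benjamini-Hochberg adjusted p = 0.0442). Neither gene overlapped between the groups. COX5A, a complex IV subunit on the matrix side, rose, with 289.6 and 552 CPM with empty vector, against 154 and 94.2 CPM in parental cells (log2 fold change 1.76 ± 0.36 (SE); edgeR, Benjamini-Hochberg adjusted p = 0.00483). NDUFB9, of complex I, had 290.4 and 643 CPM with empty vector, against 214 and 107 CPM in parental cells (log2 fold change 1.54 ± 0.44 (SE); edgeR, Benjamini-Hochberg adjusted p = 0.0220). NDUFA9, of the same complex, had 88.5 and 114 CPM with empty vector, against 55.0 and 36.8 CPM in parental cells (log2 fold change 1.14 ± 0.33 (SE); edgeR, Benjamini-Hochberg adjusted p = 0.0244). These 3 genes were higher in both empty vector libraries than in either parental library. The other nuclear members that rose were ATP5D, SDHA, NDUFS8, NDUFS3, NDUFS7, COX8A and NDUFB10, with log2 fold changes of 1.02 (SDHA) to 2.94 (ATP5D). ATP5D, the delta subunit of the ATP synthase, had 53.1 and 683 CPM with empty vector, against 68.3 and 27.8 CPM in parental cells, so its rise rested on library II. Leaving out empty vector library II removed most of the calls, and NDUFS8 and NDUFS7 then had log2 fold changes of -0.03 and -0.32. Leaving out parental library II removed nearly all of the calls, whereas more members were called when library I of either group was left out. With library totals in place of TMM factors 9 members were called, 4 mitochondrial mRNAs higher (MT-ND1, MT-CO3, MT-CO2 and MT-ND2) and 2 lower (MT-ND6 and MT-ND5), and 2 nuclear members higher (COX5A and NDUFB9) and 1 lower (NDUFB5). The median of all genes was then -0.59, of the mitochondrial mRNAs 0.62 and of the nuclear members 0.06.

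Between the parental lines, SW620 over SW480, 2 members were called, both lower in SW620, beside 18% of all genes called, 11.2% lower and 6.84% higher. MT-ND6 had 74.1 and 93.0 CPM in parental SW620, against 204 and 200.2 CPM in parental SW480 (log2 fold change -1.27 ± 0.37 (SE); edgeR, Benjamini-Hochberg adjusted p = 0.0323). NDUFB5 had 51.9 and 51.5 CPM in parental SW620, against 123 and 106 CPM in parental SW480 (log2 fold change -1.15 ± 0.34 (SE); edgeR, Benjamini-Hochberg adjusted p = 0.0350). In both genes the lines did not overlap. Both SW620 libraries were above both SW480 libraries for 2 of 13 mitochondrial mRNAs and 12 of 41 nuclear members, against 27.1% of all genes, and below for 2 and 4, against 27.4%. The median log2 fold change was 0.03 for the mitochondrial mRNAs and 0.41 for the nuclear members, 34 of 41 of which were above 0, beside -0.05 for all genes. Neither call held when any 1 of the 4 libraries was left out. Without SW480 library I, 3 other nuclear members were called, ATP5B, COX7C and SDHA, all higher in SW620. With GC and length offsets both calls were lost, with log2 fold changes of -1.06 for MT-ND6 and -0.67 for NDUFB5, and 4 other members were called, ATP5C1, COX5A, COX7C and SDHA, all higher in SW620. With library totals in place of TMM factors the calls were MT-ND6 and MT-ND5, lower in SW620, and COX5A, higher.

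The effect of empty vector over parental cells differed between SW480 and SW620 for 2 members by a test of the difference, beside 7.2% of all genes called, 3.01% positive and 4.2% negative. COX5A had 289.6 and 552 CPM in SW480 under the empty vector label, against 154 and 94.2 CPM in parental SW480, and 249.9 and 191 CPM in SW620 with empty vector, against 189 and 281 CPM in parental SW620 (difference of log2 fold changes 1.85 ± 0.51 (SE); edgeR, Benjamini-Hochberg adjusted p = 0.0463). For NDUFB5 the difference was -1.75 ± 0.48 (SE; edgeR, Benjamini-Hochberg adjusted p = 0.0474), with 41.7 and 44.4 CPM in SW620 with empty vector, against 51.9 and 51.5 CPM in parental SW620. None of the members was called when any 1 of the 4 SW620 libraries, SW480 empty vector library II or parental SW480 library II was left out. More members were called when SW480 empty vector library I or parental SW480 library I was left out. Offsets for GC content and length in all libraries gave a COX5A difference of 1.38, which was called, while NDUFB5 was not called.

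The level of the mitochondrial mRNAs relative to the nuclear members was followed as the difference of their median log2 CPM within a library, which does not depend on scaling. This gap was 3.47 and 3.73 with estradiol, 3.98 and 4.07 with DMSO, 4.01 and 3.56 in untreated cells with ERB, 3.66 and 3.58 in empty vector cells and 3.08 and 3.49 in parental SW620. For SW480 it was 3.71 and 3.74 under the ERB label, 4.12 and 4.45 under the empty vector label and 3.31 and 4.10 in parental cells. The gap was thus lower with estradiol than with DMSO in both libraries, by 0.42 on average, and higher with empty vector than in either parental SW480 library, by 0.58 on average. Without parental SW480 library I that last difference was 0.19, and without library II 0.97. The groups overlapped between DMSO and untreated cells (difference 0.24) and between the parental lines (-0.42). The first of these was 0.02 without untreated library II and 0.47 without untreated library I. The other was -0.02 without parental SW480 library II, -0.81 without its library I and -0.21 without parental SW620 library I. With ERB the gap was lower than with empty vector by 0.56 in the libraries labelled SW480, without overlap, and was higher by 0.16, with overlap, in SW620, where the difference was -0.06 without ERB library I and 0.39 without ERB library II. With empty vector it was higher than in parental SW620 by 0.34, without overlap, and this difference was 0.13 without parental library I and 0.54 without parental library II. Although it does not depend on scaling, the gap sets mRNAs of unlike GC content against each other. Pearson's r of the nuclear members' deviations with GC content was 0.08 and 0.69 with estradiol and -0.60 and -0.83 with DMSO. Against nuclear members of like GC content only, the estradiol difference was smaller and that of empty vector over parental SW480 larger, as given at the end. No test was made of these summaries, and the part of GC content in them was not tested.

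MT-ND6 was also set against MT-CYB, its neighbour read in the opposite direction, since this ratio is free of scaling. MT-ND6 had 1.13 and 0.984 reads per 100 MT-CYB reads with estradiol, 1.54 and 1.77 with DMSO, 4.72 and 2.39 in untreated cells with ERB, 2.65 and 2.61 in empty vector cells and 3.46 and 3.11 in parental SW620. For SW480 it had 2.05 and 1.85 under the ERB label, 1.99 and 1.21 under the empty vector label and, in parental cells, 7.63 and 6.501. The 2 estradiol-treated libraries held the lowest values of the 16 and the parental SW480 libraries the highest, and the 4 treated libraries were below all 6 untreated SW620 libraries. As background, MT-ND6 largely lacks a poly(A) tail, and the libraries were made from mRNA. The 2 mitochondrial rRNAs, which carry at most short tails, took 0.617 to 0.719% of reads with estradiol, 0.837 to 0.981% with DMSO, and 0.816 to 0.824% in untreated cells with ERB. For SW480 they took 1.03 to 1.59% under the empty vector label, against 0.252 to 0.412% in parental SW480. The part of RNA selection in these values was not tested.

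**Figure D4:**
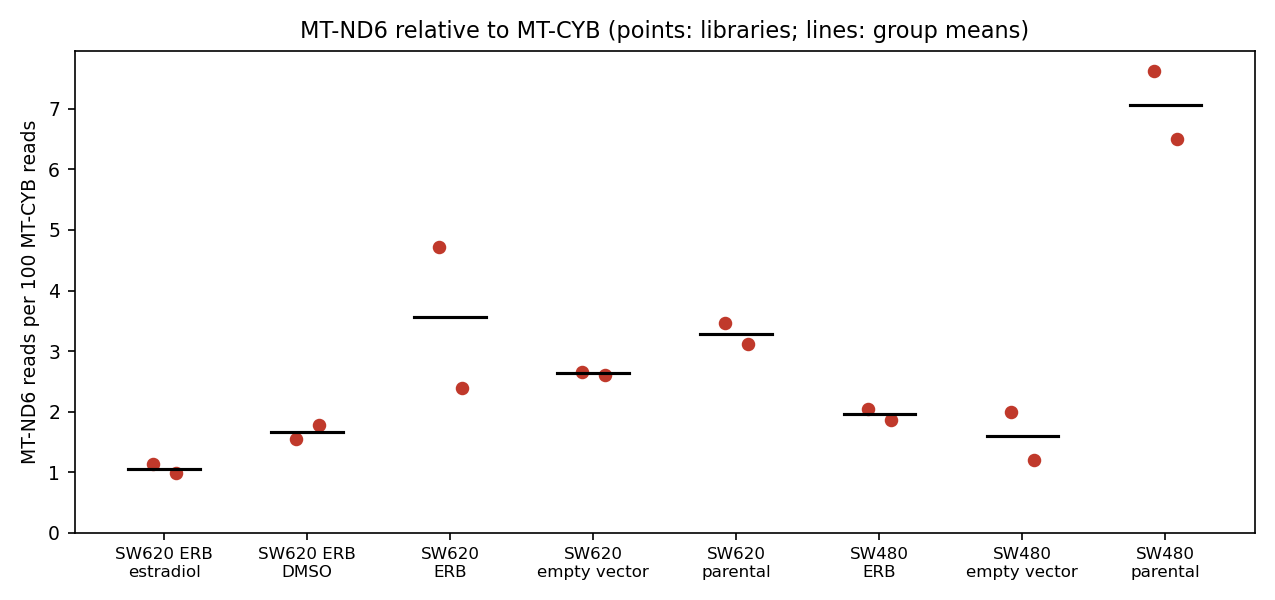
MT-ND6 reads per 100 MT-CYB reads in each library (points) with the mean of each group (lines). The parental SW480 libraries lie at 6.501 and 7.63 and the estradiol-treated libraries at 0.984 and 1.13.

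The nuclear members did not vary as a block. Across the 41 members, the deviation of a gene from its own mean was set against the GC content of its transcript, and Pearson's r ran from -0.83 in DMSO library II to 0.86 in library II labelled SW480 with empty vector. Over all tested genes r ran from -0.71 to 0.74. These are descriptions across genes of 1 library, and genes are not independent replicates. ATP5D (GC content 68.7%), NDUFS7 (66.8%) and NDUFB7 (65.0%), the most GC-rich members, had the widest ranges, 45.7, 32.2 and 32.1 times from the lowest to the highest library. NDUFB7 had 71.0 and 118 CPM with estradiol, 43.2 and 15.8 CPM with DMSO and 118 and 99.0 CPM in untreated cells with ERB, against 507 and 237 CPM with ERB and 54.3 and 467 CPM with empty vector in the libraries labelled SW480. The 2 libraries labelled SW480 with empty vector stood far apart. UQCRB, NDUFB5 and NDUFS1, of 38.9 to 43.9% GC, and SDHD, of 48.3%, ran against the median of the nuclear members, with r of -0.77, -0.67, -0.67 and -0.77 over the 16 libraries. Other members of low GC content followed it, ATP5L (45.1%) with r = 0.98, NDUFA9 (45.5%) with r = 0.95 and UQCRFS1 (45.1%) with r = 0.92. COX6A1, also with r = 0.98, followed it most closely.

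When the nuclear members were divided into 3 classes of low, middle and high GC content (14, 13 and 14 genes), their median log2 fold change for estradiol over DMSO was -0.22 in the low class, 0.70 in the middle and 1.13 in the high. The protein-coding genes tested in the same GC ranges had medians of -0.99, 0.03 and 0.86. For DMSO over untreated the nuclear members had -0.38, -0.86 and -1.15, beside 0.79, 0.02 and -0.62 for the protein-coding genes of these ranges. For empty vector over parental in the libraries labelled SW480 the values were -0.10, 0.56 and 1.44, beside -1.14, -0.12 and 0.78. In each class the members thus lay above genes of like GC content in the first and last of these comparisons, and below them in the second. For ERB over empty vector in SW620 the members had -0.11, -0.02 and 0.00, beside -0.02, 0.00 and 0.00 for the protein-coding genes of these ranges. The part of GC content in single calls was not tested beyond the fits with offsets given above.

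**Figure D5:**
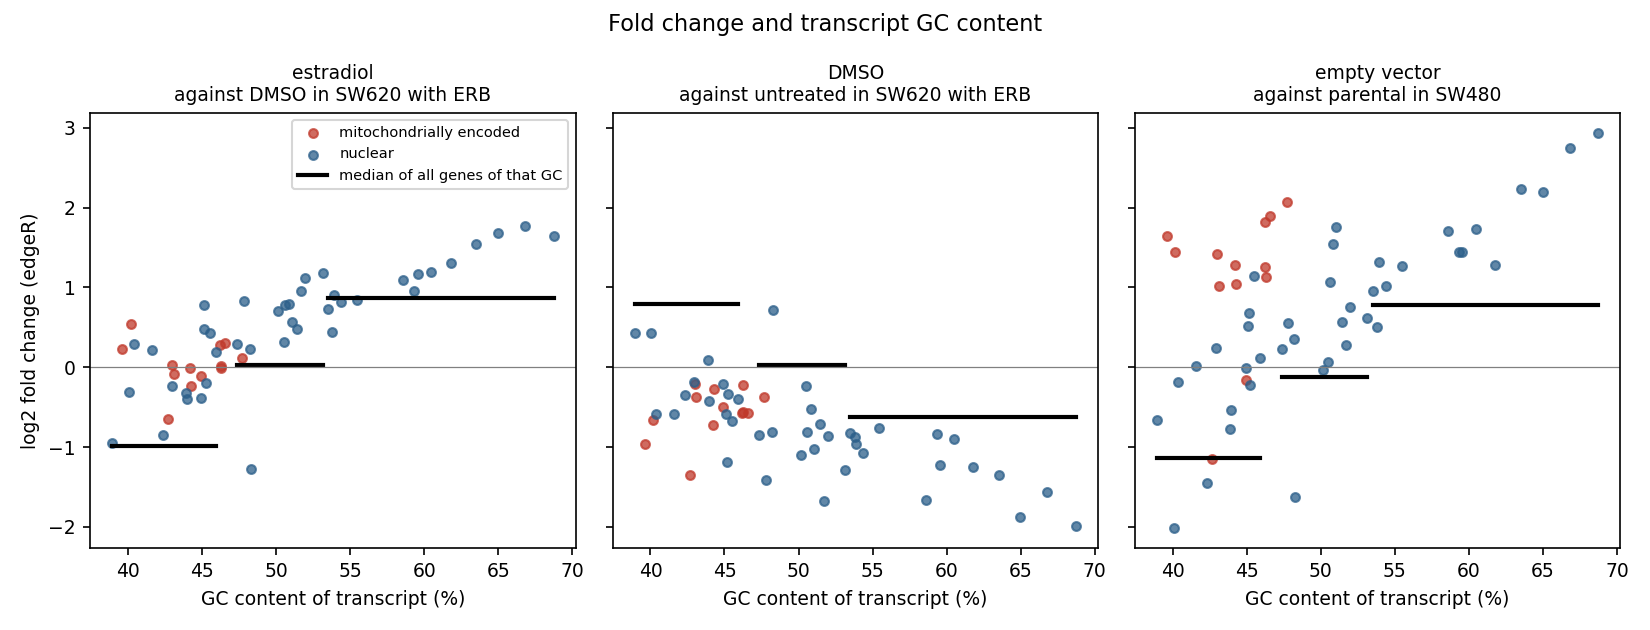
log2 fold change of each member against the GC content of its transcript (%) in 3 comparisons. Red points are mitochondrial mRNAs and blue points nuclear members. Black bars are the median of all tested protein-coding genes within the GC range of each class of nuclear members. Nuclear members lie mostly above the bars for estradiol over DMSO and for empty vector over parental SW480, and mostly below them for DMSO over untreated.

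Other genes of the mitochondrion were counted from lists, to be read beside the share of all genes called. In SW620 alone this share was 29.4% higher and 23.6% lower with estradiol against DMSO. With DMSO against untreated it was 23.6% higher and 25.1% lower. In the fit of all libraries, which gave the DMSO calls named below by gene, 2.39% of all genes were called higher and 3.76% lower. Of 37 further nuclear subunits, NDUFS5 and ATP5J2 fell with DMSO against untreated cells in the fit of all libraries (median -0.90), and 26 fell and 2 rose in the SW620 libraries alone. With estradiol against DMSO, 0 of 37 were called in the fit of all libraries and 18 rose and 2 fell in SW620 alone. With GC and length offsets in SW620 alone, where 10.8% of all genes were called higher and 7.75% lower with estradiol and 23.1% higher and 24% lower with DMSO, 13 rose and 0 fell with estradiol, and 1 rose and 29 fell with DMSO. Of 75 mitochondrial ribosomal proteins, 1, MRPL23, fell with DMSO (median -0.52), and in SW620 alone 35 fell and 4 rose. With estradiol 37 rose and 16 fell in SW620 alone (median 0.46). With offsets 30 rose and 0 fell with estradiol (median 0.26), and 2 rose and 39 fell with DMSO. Of 18 enzymes of the tricarboxylic acid cycle, which feeds electrons to complexes I and II, IDH2 fell with DMSO (median -0.56), and in SW620 alone 10 fell and 1 rose. With estradiol 9 of the 18 rose and 5 fell. With offsets 8 rose and 0 fell with estradiol, and 0 rose and 13 fell with DMSO. For empty vector over parental in SW480 in the fit of all libraries, 14.9% of all genes were called higher and 16% lower. There 13 of 75 ribosomal proteins rose and 1 fell, and 3 of 18 cycle enzymes rose and 1 fell. The counts that rose in these 2 lists were near the share of all genes. Both mitochondrial rRNAs rose (MT-RNR2 2.79 and MT-RNR1 2.17). Of the ribosomal proteins, MRPL48 (1.24), MRPL40 (1.20) and MRPL2 (2.24) had the smallest p, and MRPL35 (-1.40) was the one that fell. Of 37 assembly factors tested, NDUFAF4 rose with DMSO (1.21) in the fit of all libraries, and in SW620 alone 8 rose and 12 fell. With estradiol 15 rose and 11 fell there, and 7 rose and 6 fell with offsets. Genes that make and process mitochondrial RNA gave mixed counts. Of 19 genes for mitochondrial transcription and DNA maintenance, 7 rose and 2 fell with DMSO in SW620 alone (median 0.32), and 6 rose and 9 fell with estradiol (median -0.51). With offsets 7 rose and 3 fell with DMSO (median 0.11), and 3 rose and 3 fell with estradiol (median -0.26). Of 20 genes for RNA processing and decay, 3 rose and 5 fell with DMSO (median 0.13) and 5 rose and 10 fell with estradiol (median -0.49). With offsets 2 rose and 7 fell with DMSO (median -0.10) and 6 rose and 4 fell with estradiol (median 0.06), so that both medians changed sign. TFAM, which packages mitochondrial DNA and starts its transcription, had 43.2 and 34.6 CPM with estradiol, 124 and 145 CPM with DMSO and 67.0 and 56.8 CPM in untreated cells with ERB. POLRMT, the mitochondrial RNA polymerase, had 70.8 and 91.0 CPM with estradiol, 34.1 and 20.9 CPM with DMSO and 75.6 and 66.3 CPM untreated. LRPPRC, which binds and stabilises mitochondrial mRNAs, had 61.1 and 51.7 CPM with estradiol, 153 and 185 CPM with DMSO and 91.1 and 97.0 CPM untreated. Among these 6 libraries of SW620 with ERB, both DMSO-treated ones were thus the highest for TFAM and LRPPRC and the lowest for POLRMT. The POLRMT values with estradiol and without treatment overlapped. TFAM, POLRMT and LRPPRC were chosen after their values were seen, and their CPM are without offsets for GC content and length.

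Over the 16 libraries, the genes outside the members whose log2 CPM was most like the median of the mitochondrial mRNAs, among 8133 protein-coding genes with a mean of at least 10 CPM, were RPL23A (Pearson's r = 0.92), CTC1 (0.91), GAD1 (0.90), SEPTIN6 (0.90) and EIF3F (0.89). Those most like the median of the nuclear members were CLPB (0.99), POLD2 (0.98), AHCY (0.98) and USB1 (0.98). The points share library, depth and base composition, so these values only describe likeness. Some members carry limits of counting. NDUFV2, a complex I subunit, had 5 to 26 reads in the count table while its FPKM was 92.7 to 189.9. The 2 tables followed each other with r = 0.26, against a median of 0.997 over the members. In the reference annotation (GRCh38, whereas the reads were processed on GRCh37) another gene overlaps it on the same strand and one on the opposite strand. The part of this overlap in its counts was not tested. NDUFV2 is among the 41 nuclear members counted above and was called in none of the fits of all libraries or of SW620 alone. SDHA, with r = 0.75, has near-identical copies elsewhere in the genome. Nuclear copies of mitochondrial genes also took reads, MTATP6P1 2902 to 11772 and MTND2P28 1092 to 1973 per library, so that counting could have divided reads between them and MT-ATP6 or MT-ND2.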

How the data were processed

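RNA of 16 libraries of SW620 and SW480 cells was sequenced from a stranded poly(A) mRNA kit, per the labels' protocols. Gene-level counts and, in a second table, FPKM values were deposited by the authors. The submitters' processing notes name the build GRCh37, HTSeq 0.6.1, Cufflinks 2.1.1, TopHat2 2.0.4, Picard 1.29 and SAMtools. The sources used here do not say whether counting used the strand.

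Counts were tested with the quasi-likelihood F test of edgeR 4.0.16 (R 4.3.3), with TMM scaling, the default filter on low counts and 1 fit of all 16 libraries in 8 groups. Benjamini-Hochberg adjustment covered the 17464 genes tested, and an adjusted p under 0.05 was a call. The SE of a log2 fold change is its size divided by the root of the F statistic. Levels within a gene are CPM scaled by TMM factors, and levels between genes are FPKM. No test was made over sets of members. Alternatives used DESeq2 1.42.0, limma 3.58.1, other filters and scalings, FPKM, fewer libraries and offsets for GC content and length, taken as the median over protein-coding transcripts in GENCODE (GRCh38), known for 98% of genes tested. The offsets within a line, the gap with nuclear members of like GC content, leaving out libraries within SW620 and library totals without TMM were chosen after seeing the data. The fitting functions were tested on simulated data.

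Members and gene lists were chosen with earlier results of these data known. Genes are given with every library for 6 mitochondrial mRNAs and 1 nuclear member per complex, and, per comparison, for up to 3 called members of each kind and direction with the smallest p, or the 1 with the smallest p where none was called. From the other lists, called genes with the smallest p were named. Likeness of pattern was ranked by Pearson correlation. Some genes that these rules would name are not reported here. Replicate numbers were not treated as pairs: the correlation of same-numbered libraries' deviations ran from -0.81 to 0.73 over 28 pairs of groups and was over 0.1 in 9.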

Additional observations from a re-analysis of the deposited data

Results flagged for a closer look

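The effect of empty vector over parental cells differed between SW480 and SW620 for 2 members, by a test of the difference itself. COX5A, a subunit of complex IV, had a difference of log2 fold changes, SW480 minus SW620, of 1.85 ± 0.51 (SE; edgeR, Benjamini-Hochberg adjusted p = 0.0463). NDUFB5, an accessory subunit of complex I, had a difference of -1.75 ± 0.48 (SE; edgeR, Benjamini-Hochberg adjusted p = 0.0474). NDUFB5 was not called with GC and length offsets, library totals or FPKM, and COX5A was not called with RLE factors. Neither was called with the replicate block, and both calls depended on which library was left out. Both differences involve the libraries labelled SW480 with empty vector. In these, genes that mark parental SW480 were at a median of 2.22 and 2.17% of their level in parental SW480. How far that departure from parental SW480 enters the 2 differences was not tested.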

How the results depend on the processing

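Of the alternatives, 119 counts of called members lay within 1.5 times the count given and 60 did not. The 119 include refits in which 0 members were called both times, and the causes were not tested. For the named members, 416 alternatives kept the call or its absence, 225 lost a call, 15 gained one and 2 reversed direction. Except for SW620 alone, where it is given above, the share of all genes called is not set beside the counts below. They describe the fits and are not results about the members. For estradiol over DMSO the count of 0 became 8 without a filter on low counts, 35 with the 4 libraries of the comparison alone, 27 with SW620 alone and 23 with GC and length offsets in SW620 alone. Leaving out 1 library kept it at 0 in the fit of all libraries and, in SW620 alone, gave 20 and 0 without estradiol library I or II and 16 and 1 without DMSO library I or II. For DMSO over untreated the count of 1 became 12 without a filter, 6 with DESeq2, 2 with limma-voom and 2 with log2(FPKM + 1), filtered or not. It became 44 with the comparison alone, 35 with SW620 alone, 45 with offsets there, 19 with offsets in all libraries and 0 with the replicate block; leaving out 1 library gave 0 in the fit of all libraries and, in SW620 alone, 17 and 15 without DMSO library I or II and 22 and 20 without untreated library I or II. For empty vector over parental in the libraries labelled SW480 the count of 22 became 9 with library totals, 9 with FPKM and either pseudocount, 6 with FPKM and no filter, 31 with DESeq2, 1 with the comparison alone, 0 with the line alone, 2 with offsets there, 8 with the replicate block and 1 to 38 when 1 library was left out. Between the parental lines the count of 2 became 5 without a filter, 0 with the comparison alone, 0 with the replicate block, 4 with offsets, which did not include either of the 2, and 0 to 3 when 1 library was left out. For the difference of the vector effect the count of 2 became 1 with RLE factors, 1 with library totals, 15 without a filter, 4 with DESeq2, 1 with log2(FPKM + 0.1) and with unfiltered FPKM, 0 with the replicate block, 7 with offsets and 0 to 32 when 1 library was left out. For ERB over empty vector in SW480 leaving out 1 library gave 0 to 1. The replicate block changed no other count; same-numbered libraries were not shown to be pairs.

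The mitochondrial-nuclear gap for ERB over empty vector in SW620, 0.16, became -0.10 with the ratio of summed counts. In SW480 it was -0.56, and -0.30 with FPKM and -0.33 without MT-ATP8, MT-ND4L and MT-ND6. For estradiol over DMSO it was -0.42, and -0.62 with summed counts and -0.24 with the 14 nuclear members of 39.6 to 47.7% GC. For empty vector over parental SW480 it was 0.58, and 1.42 with those members. When 1 library was left out, the log2 fold change of NDUFS8 for empty vector over parental SW480 ran from -0.029 to 3.07 and that of NDUFS7 from -0.32 to 3.64, both below 0 without empty vector library II. The precision of NDUFV2 was limited by its 5 to 26 counted reads, although its FPKM was 92.7 to 189.9.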
